A study of Mus musculus with 8 samples.

Results

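The subunits examined here were 10 genes of the BAF complex, the mammalian SWI/SNF chromatin remodeller, taken by gene symbol from the deposited expression tables out of 21827 genes in all: the ATPases Smarca4 and Smarca2, the actin-like subunits Actl6a and Actl6b, the PHD finger subunits Phf10, Dpf1, Dpf2, and Dpf3, and the scaffold subunits Smarcc1 and Smarcc2. The rule for the list names genes and uses no measured value, and all 10 were found in all 8 tables. RNA was sequenced from retinas of ICR mice, and there was 1 library for each of 8 conditions. Whole retinas were taken at embryonic days 15 and 18 (E15 and E18), and retinas at postnatal days 2, 5, and 8 (P2, P5, and P8) were pooled, dissociated, and sorted with an antibody to the surface protein Cd73 (Nt5e), which marks rod photoreceptors and their precursors. Cd73PC is the Cd73-positive fraction. Cd73NC is the Cd73-negative fraction, a mixture of progenitors, Müller glia, and neurons other than rods, whose makeup differs between stages. No condition was replicated, so no difference between 2 libraries could be set against a replicate error, and the only test was of the fractions over all 3 stages.

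The BAF complex uses the energy of ATP to slide or evict nucleosomes. In the brain, dividing neural progenitors are known for a complex (npBAF) that holds Actl6a, also called BAF53a, and Phf10 (BAF45a). Neurons leaving the cell cycle exchange Actl6a and Phf10 for Actl6b (BAF53b) and Dpf1 (BAF45b) or Dpf3 (BAF45c) in the neuronal complex (nBAF). Smarca4 (Brg1) and Smarca2 (Brm) are alternative ATPases, and Smarcc1 (BAF155) and Smarcc2 (BAF170) are paired scaffold subunits. In the accounts below, Smarca4, Actl6a, Phf10, and Smarcc1 are called progenitor-type, and Smarca2, Actl6b, Dpf1, Dpf3, and Smarcc2 neuron-type. Dpf2 (BAF45d), taken here as a member of both complexes, is given apart. For the ATPase and scaffold pairs these names are only a grouping used here, and the medians by type depend on it.

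Levels are FPKM, fragments scaled to transcript length and to the mapped fragments of the library, so that levels of different genes can be set side by side. The bracketed range after a level is the lower and upper bound that Cufflinks deposited with it. It describes the estimate within that library and not the variation between animals. Of the 80 values of the 10 genes, 4 were failed estimates, all of them Smarca4, and were taken as missing. Of the other 76, 9 lay above their own upper bound (6 of them Actl6a) and 67 inside their bounds. Depth relative to E18 ran from 0.966 in E15 to 1.62 in P2 Cd73PC, and the absolute depth is unknown. All 9 rod markers, such as Nrl and Sag, were past 1.5-fold higher in Cd73PC at each stage, and their summed FPKM was 4816, 10379.5, and 14393 in P2, P5, and P8 Cd73PC, against 110 in P2 Cd73NC, 1320.4 in P5 Cd73NC, and 1049.97 in P8 Cd73NC. The sort marker Nt5e had 97.3, 131, and 124 FPKM in Cd73PC and 2.43, 31.4, and 9.38 in Cd73NC. The Cd73NC fractions of P5 and P8 held rod RNA as well, with Nrl at 277 and 107 FPKM. The summed FPKM of 10 markers of dividing cells was between 546 and 673 in E15, E18, and P2 Cd73NC, 206 in P2 Cd73PC, 158 in P5 Cd73NC, 47.4 in P5 Cd73PC, 17.7 in P8 Cd73NC, and 6.7 in P8 Cd73PC. The summed FPKM of 5 bipolar markers was 866 in P8 Cd73NC, between 6.3 and 92.4 in the other 7 libraries, and that of 5 ganglion cell markers was 815 at E15, 501 at E18, and between 1.8 and 12.8 after birth. In such bulk samples, fewer cells of a type and less RNA per cell cannot be told apart.

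The sequence most tied to this exchange of subunits is a microRNA seed, and it is shown because the known exchange of Actl6a for Actl6b passes through it: miR-9-3p (also called miR-9*) and miR-124 are known to repress Actl6a through its 3′ UTR. The mature miR-9-3p from RefSeq is given with its seed, bases 2 to 8, in capitals, and below it stand the places in annotated 3′ UTRs of 3 members that hold all 7 letters complementary to the seed, AGCTTTA, in capitals (build NCBI37/mm9).
mmu-miR-9-3p: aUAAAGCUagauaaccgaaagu
Actl6a, chr3:32625550-32625577, plus strand: ctcaacgtctgtAGCTTTAgtacactca
Smarca2, chr19:26851980-26852007, plus strand: tcatctagaactAGCTTTAgggtagtgc
Smarcc1, chr9:110141105-110141132, plus strand: agcaaagagcacAGCTTTAcaacaagcc
Smarcc1, chr9:110141933-110141960, plus strand: tgtgtattttaaAGCTTTAtgtatgaga
The 3′ UTR of Actl6a has 366 bases, and the match begins at base 38. Among all 19915 genes with an annotated 3′ UTR, 9.83% held AGCTTTA in their longest one, and among the 1708 genes with a 3′ UTR of 300 to 450 bases, 2.4% did. A match of letters is a description and not a site shown to be used. Of the 3 genes, Actl6a and Smarcc1 are progenitor-type and Smarca2 is neuron-type.

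The promoters of Dpf3 and Dpf1 are shown because these 2 neuron-type members of the BAF45 family differed most between the fractions, in opposite directions. Each stretch runs from 250 bases before the RefSeq start to 50 after it (build GRCm38.p6), with the letters GGGCGG, a GC box bound by Sp family factors, in capitals on either strand (CCGCCC on the other).
Dpf3, chr12:83487687-83487986, minus strand: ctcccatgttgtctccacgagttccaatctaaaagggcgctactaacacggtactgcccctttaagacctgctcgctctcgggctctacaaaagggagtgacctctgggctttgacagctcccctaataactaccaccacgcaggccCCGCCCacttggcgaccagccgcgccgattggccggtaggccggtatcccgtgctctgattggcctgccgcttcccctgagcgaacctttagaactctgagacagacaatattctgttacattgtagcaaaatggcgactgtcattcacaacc
Dpf1, chr7:29303755-29304054, plus strand: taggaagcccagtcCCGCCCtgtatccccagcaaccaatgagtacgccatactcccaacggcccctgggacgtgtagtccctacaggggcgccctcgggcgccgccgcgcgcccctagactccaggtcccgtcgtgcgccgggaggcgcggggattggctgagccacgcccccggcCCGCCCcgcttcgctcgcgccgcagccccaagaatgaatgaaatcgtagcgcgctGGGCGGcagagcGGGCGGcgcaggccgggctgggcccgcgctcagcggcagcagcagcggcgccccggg
The Dpf3 stretch is 55.3% G and C with 17 CpG, and the Dpf1 stretch is 74% G and C with 39 CpG. The medians over 32851 RefSeq promoters were 52.7% and 7 CpG. GGGCGG occurred 1 time in the Dpf3 stretch, 4 times in that of Dpf1, and at least once in 9 of the 10 members (not Dpf2), against 35.7% of all promoters. All 10 stretches were above both medians, from 55.3% to 87% G and C and from 17 to 62 CpG. GGGCGG is itself made of G and C, and no background of promoters with like base content was taken. TAATCC, the core bound by the photoreceptor factors Crx and Otx2, was in none of the 10 stretches and in 7.06% of all promoters, and the E2F type letters TTTCCCGC or TTTGGCGC were in none of the 10 and in 1.56% of all. All were searched on both strands, and with 1 motif matched no matches of different motifs overlapped.

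The short reads of 36 bases bear on some of the levels. Of the 36-base words of the Dpf3 transcripts that the mm9 genome holds, 93.5% occurred 2 times. Both copies lay inside the stretch of chromosome 12 that the table or the annotation gives for Dpf3 (chr12:84370185-84828658 in the table), and the most common distance between them was 269072 bases. Every library was aligned to the same genome, but how the reads of Dpf3 were shared between the copies is not stated, so its level beside other genes is uncertain. For Dpf2, 18.6% of the words occurred more than once, 551 of them with a second copy inside Larp4 on chromosome 15, and for Smarcc1 8.7%. The share was 2.14% or less for the other members, and no word was shared between 2 members. The reads carry no strand, and 16.2% of the exonic bases of Actl6a lie under exons of Mrpl47 on the other strand, as do 9.68% of those of Phf10 under 1600012H06Rik.

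**Figure D1:**
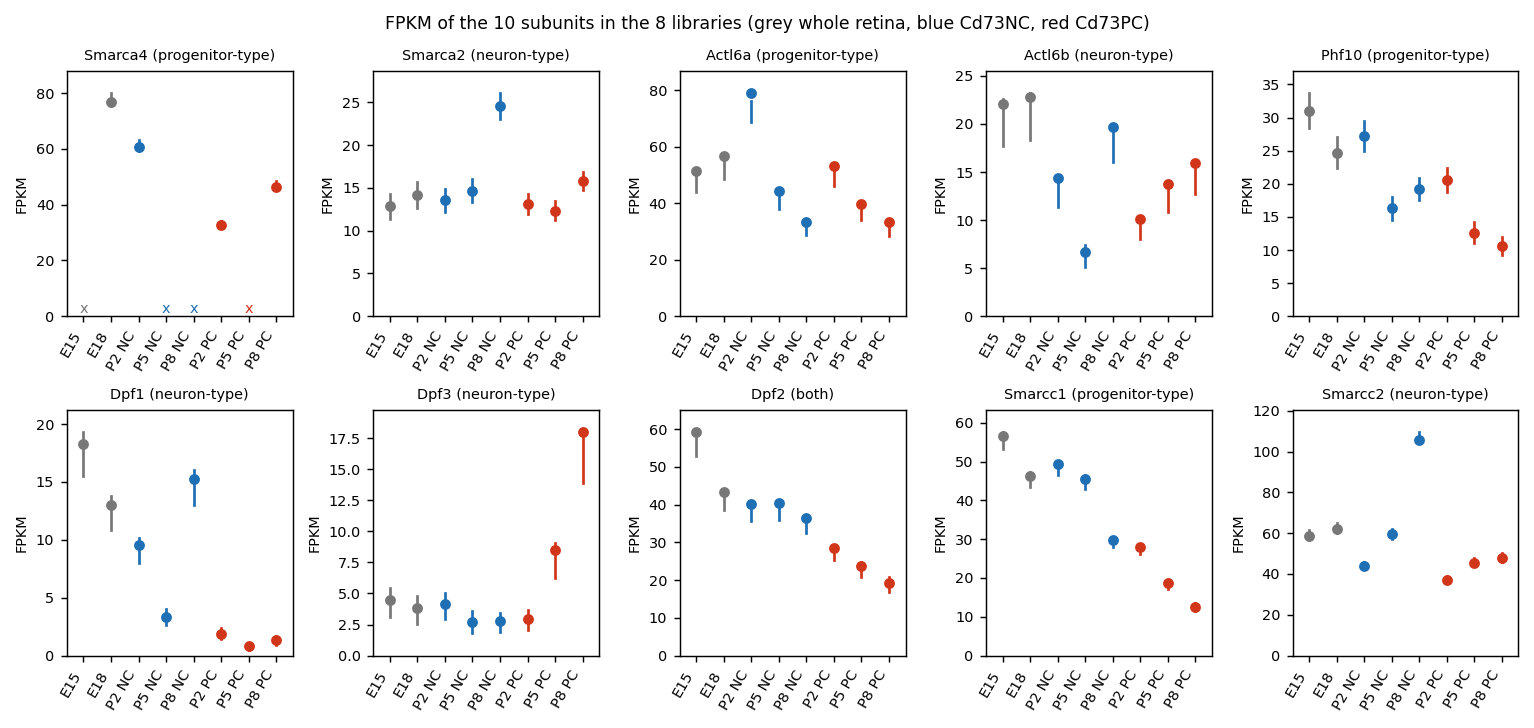
FPKM of each of the 10 subunits (y axis) in the 8 libraries (x axis), as points with the deposited Cufflinks bounds as vertical lines. Grey is whole retina, blue Cd73NC, red Cd73PC, and an x marks the 4 failed estimates of Smarca4. Dpf3 stands at 8.5 and 18 FPKM in P5 and P8 Cd73PC and under 5 elsewhere, and Dpf1 stays under 2 in all 3 Cd73PC libraries.

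The ATPases were read only in part. Smarca4 (chr9:21420613-21508674) encodes Brg1, the main ATPase of the complex in neural progenitors. It had 76.9 FPKM [75.3 to 80.0] at E18, 60.8 [59.4 to 63.3] in P2 Cd73NC, 32.5 [31.5 to 34.0] in P2 Cd73PC, and 46.5 [45.1 to 48.5] in P8 Cd73PC. Its estimate failed in E15, P5 Cd73NC, P5 Cd73PC, and P8 Cd73NC, so that the fractions could be compared at P2 alone. There, Smarca4 was 1.84-fold lower in Cd73PC than in Cd73NC (log2 difference -0.88, on FPKM + 1 as in all differences given below). No neighbouring pair in the order of these 4 levels had overlapping bounds. Bounds apart were usual among genes past 1.5-fold and lower in Cd73PC, 2944 of 2987 at P2 and 3620 of 3674 at P8. Smarca2 (chr19:26679650-26852811), the alternative ATPase Brm, was at 12.9 FPKM in E15, 14.2 in E18, 13.6 in P2, 14.7 in P5, and 24.6 in P8 Cd73NC, and at 13.1 in P2, 12.4 in P5, and 15.8 in P8 Cd73PC. P8 Cd73NC stood above the rest with bounds of 23.1 to 26.1, and the other 7 levels overlapped with their neighbours in the order. Smarca2 was 1.52-fold lower in Cd73PC than in Cd73NC at P8, just past the 1.5-fold threshold, and within 1.18-fold at P2 and P5. In each of the 4 libraries with both values, Smarca4 was the higher, and the ratio of Smarca2 to Smarca4 was 0.185 in E18, 0.223 in P2 Cd73NC, 0.403 in P2 Cd73PC, and 0.34 in P8 Cd73PC.

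Actl6a stayed above its neuron-type partner in every library. Actl6a (chr3:32607468-32625893) had 51.5 FPKM in E15, 56.7 in E18, 79.1 in P2, 44.4 in P5, and 33.4 in P8 Cd73NC, and 53.4 in P2, 39.9 in P5, and 33.4 in P8 Cd73PC. The highest level was in P2 Cd73NC, and both fractions were lowest at P8, with the same rounded level. At P2, Actl6a was 1.47-fold lower in Cd73PC, which is not past the threshold. Actl6b (chr5:137994783-138010801), whose protein is found in neurons after the last division, had 22.1 FPKM [17.7 to 22.6] in E15, 22.8 [18.3 to 23.2] in E18, 14.3 [11.4 to 14.6] in P2, 6.72 [5.10 to 7.37] in P5, and 19.7 [16.0 to 19.6] in P8 Cd73NC. In Cd73PC it had 10.1 [8.00 to 10.4] at P2, 13.8 [10.9 to 14.1] at P5, and 15.9 [12.7 to 16.1] at P8. The Cd73NC levels thus had their minimum at P5, below every Cd73PC level, and the Cd73PC levels ascended with stage. Actl6b was 1.92-fold higher in Cd73PC at P5 (log2 difference 0.94), and not past the threshold at P2 (-0.46) or P8 (-0.29). The FPKM of Actl6b was 42.9% of that of Actl6a in E15, 40.2% in E18, 18.1% in P2, 15.1% in P5, and 59.1% in P8 Cd73NC, and 18.9%, 34.6%, and 47.6% in P2, P5, and P8 Cd73PC. The ratio was lower after birth than in the embryonic whole retinas until P8, and no library reached equal levels. The embryonic libraries also held the ganglion cell RNA given above, whose part in the level of Actl6b was not tested.

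In the scaffold pair, Smarcc1 was lower in Cd73PC at every stage, and Smarcc2 stood highest in P8 Cd73NC. Smarcc1 (chr9:110034528-110142682) had 56.6 FPKM in E15, 46.4 in E18, 49.5 in P2, 45.7 in P5, and 29.8 in P8 Cd73NC, and 28 in P2, 18.6 in P5, and 12.6 in P8 Cd73PC. Each Cd73PC level was below the Cd73NC level of its stage, by 1.74-fold at P2, 2.38-fold at P5, and 2.27-fold at P8. The deposited bounds did not overlap at any stage, which was so for nearly all genes past 1.5-fold and lower in Cd73PC. These were 2944 of 2987 genes at P2, 3192 of 3243 at P5, and 3620 of 3674 at P8. Smarcc2 (chr10:127896292-127927230) had 58.8 FPKM in E15, 62.3 in E18, 44.0 in P2, 59.4 in P5, and 106 in P8 Cd73NC, and 37.3 in P2, 45.6 in P5, and 48.0 in P8 Cd73PC. P8 Cd73NC was far above the rest, with bounds of 104 to 110, and there Smarcc2 was 2.18-fold lower in Cd73PC, while at P2 and P5 it was 1.18-fold and 1.30-fold lower and not past the threshold. The ratio of Smarcc2 to Smarcc1 was 1.04 in E15, 1.34 in E18, 0.889 in P2, 1.30 in P5, and 3.54 in P8 Cd73NC, and 1.33, 2.45, and 3.81 in P2, P5, and P8 Cd73PC. At P8 the 2 fractions had like ratios from unlike levels, both genes being lower in Cd73PC. Both genes differed from P2 to P8 in each fraction. Smarcc1 went from 49.5 to 29.8 FPKM in Cd73NC and from 28 to 12.6 in Cd73PC. Smarcc2 went from 44.0 to 106 in Cd73NC and from 37.3 to 48.0 in Cd73PC.

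The BAF45 family differed most between the fractions. Phf10 (chr17:15082000-15098237), the BAF45a of progenitors, had 31 FPKM in E15, 24.7 in E18, 27.2 in P2, 16.3 in P5, and 19.2 in P8 Cd73NC, and 20.6 in P2, 12.6 in P5, and 10.6 in P8 Cd73PC. It was 1.74-fold lower in Cd73PC at P8, and 1.31-fold and 1.27-fold lower, not past the threshold, at P2 and P5. Dpf2 (chr19:5897135-5912866), the broadly expressed member of both complexes, had 59.2 FPKM in E15, 43.4 in E18, 40.1 in P2, 40.3 in P5, and 36.5 in P8 Cd73NC, and 28.6 in P2, 23.8 in P5, and 19.3 in P8 Cd73PC. It was past the threshold and lower in Cd73PC at P5 (1.67-fold) and P8 (1.85-fold), but not at P2 (1.39-fold).

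Dpf1 and Dpf3, both neuron-type, took opposite courses. Dpf1 (chr7:30089024-30102605) had 18.3 FPKM [15.5 to 19.3] in E15, 13.0 [10.9 to 13.8] in E18, 9.58 [8.01 to 10.1] in P2, 3.36 [2.60 to 4.02] in P5, and 15.2 [13.0 to 16.1] in P8 Cd73NC. In Cd73PC it had 1.90 [1.44 to 2.34] at P2, 0.80 [0.495 to 1.09] at P5, and 1.33 [0.939 to 1.72] at P8. All Cd73PC levels were below all others, and Dpf1 was 3.65-fold lower in Cd73PC than in Cd73NC at P2, 2.42-fold at P5, and 6.96-fold at P8. Dpf3 (chr12:84370185-84828658) had 4.47 FPKM [3.06 to 5.44] in E15, 3.81 [2.55 to 4.79] in E18, 4.17 [2.94 to 5.07] in P2, 2.73 [1.82 to 3.60] in P5, and 2.76 [1.89 to 3.42] in P8 Cd73NC. In Cd73PC it had 2.92 [2.02 to 3.63] at P2, 8.50 [6.26 to 9.05] at P5, and 18.0 [13.9 to 17.7] at P8, the last above its own upper bound. P5 and P8 Cd73PC stood apart from each other and from the 6 other levels, which overlapped with their neighbours in the order. Bounds apart were usual among genes past 1.5-fold and higher in Cd73PC, 1366 of 1434 at P5 and 1489 of 1530 at P8. Dpf3 was 2.54-fold higher in Cd73PC at P5 and 5.04-fold at P8, and 1.32-fold lower, not past the threshold, at P2.

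Of the summed FPKM of the 4 BAF45 genes, Dpf3 made up between 3.7% and 5.4% in E15, E18, P2 Cd73PC, and the Cd73NC libraries, 18.6% in P5 Cd73PC, and 36.5% in P8 Cd73PC. Dpf1 made up 16.2% in E15 and 20.7% in P8 Cd73NC, and between 1.8% and 3.5% in the Cd73PC libraries. The ratio of Dpf3 to Phf10 was 0.673 in P5 Cd73PC and 1.70 in P8 Cd73PC, the only library in which a neuron-type BAF45 gene was above Phf10. These shares rest on the level of Dpf3, which the repeated words given above make uncertain. The ratio of Dpf1 to Phf10 was 59.0% in E15, 52.6% in E18, 35.2% in P2, 20.6% in P5, and 79.2% in P8 Cd73NC, and 9.22%, 6.33%, and 12.6% in P2, P5, and P8 Cd73PC.

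**Figure D2:**
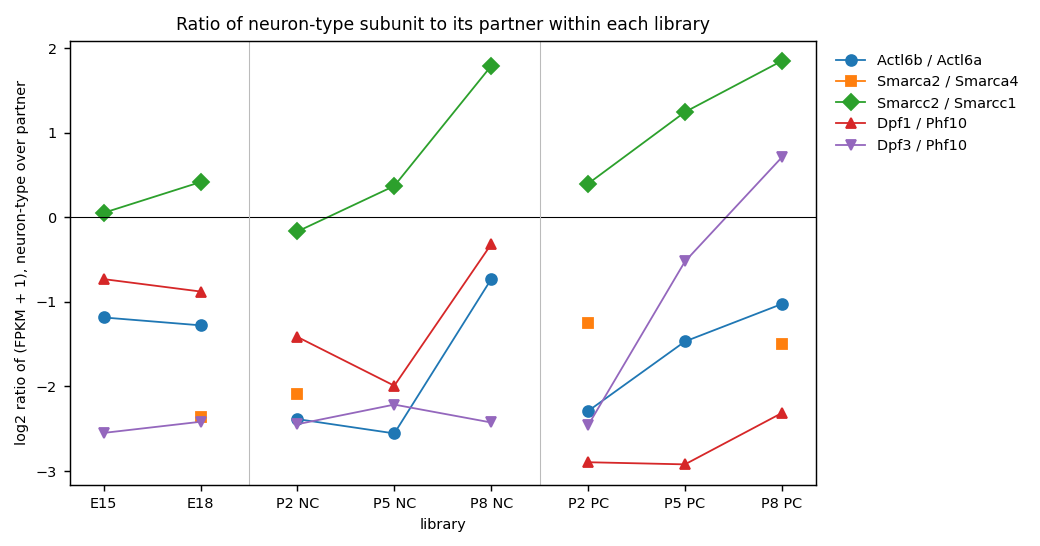
Log2 ratio of FPKM + 1 of each neuron-type subunit over its progenitor-type partner (y axis) within each library (x axis), with lines joining libraries of whole retina, Cd73NC, or Cd73PC. Values above 0 mean more of the neuron-type subunit. Dpf3 over Phf10 passes 0 in P8 Cd73PC alone, Actl6b over Actl6a in no library, and Smarca2 over Smarca4 has 4 values because of failed estimates.

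The comparison of the fractions asked how rods and their precursors differ from the other retinal cells of the same stage. At P2, 0 of the 10 subunits were past 1.5-fold higher in Cd73PC, where 13.9% of the genes tested were, and 3 were past it and lower (Smarca4, Smarcc1, and Dpf1), where 24.2% were. At P5, 2 of 9 were higher (Actl6b and Dpf3) against a background of 11.6%, and 3 of 9 lower (Smarcc1, Dpf1, and Dpf2) against 26.3%. At P8, 1 of 9 was higher (Dpf3) against 12.4%, and 6 of 9 were lower (Smarca2, Phf10, Smarcc1, Smarcc2, Dpf1, and Dpf2) against 29.8%. The median log2 difference of the subunits was -0.47 (P2), -0.35 (P5), and -0.80 (P8), and that of all genes tested was -0.14, -0.18, and -0.22. Most genes were thus slightly lower in Cd73PC, and with the differences centred on that median, Dpf2 at P5 and Smarca2 at P8 were no longer past the threshold. Centring also moved the share of higher genes among all genes past the threshold from 36.5% to 47.8% at P2, from 30.7% to 45.1% at P5, and from 29.4% to 43.7% at P8. By type, the neuron-type subunits had medians of -0.40, -0.23, and -0.60 at P2, P5, and P8, and that of the progenitor-type subunits was -0.68, -0.35, and -0.80. Both types had negative medians at each stage. The markers of dividing cells were lower in Cd73PC at P2 (10 of 10), P5 (10 of 10), and P8 (7 of 10), as were the bipolar markers at P8 (5 of 5) and the Müller glia markers at P2 (4 of 5), P5 (5 of 5), and P8 (5 of 5), whose summed FPKM was between 319 and 478 in Cd73PC and between 1089 and 1510 in Cd73NC. Microglia markers were higher in Cd73PC at P2 (4 of 4, summed FPKM 25.5 against 4.3). Their part in these differences was not tested.

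Over the 3 stages together, 3 of 9 subunits differed between the fractions, all of them lower in Cd73PC. Both fractions of a stage were sorted from the same retinas, so the stages were used as 3 pairs in a limma fit with stage as a block, on log2(FPKM + 1) of 12342 genes and with adjusted p over all of them. Smarcc1 was lower by a mean log2 difference of -1.08 (SE 0.147, adjusted p = 0.00789), Dpf1 by -1.98 (SE 0.316, adjusted p = 0.0115), and Dpf2 by -0.70 (SE 0.140, adjusted p = 0.0206), each in 3 of 3 stages. Of all genes, 20.2% passed on the lower side and 9.17% on the higher. Among the subunits, 0 passed on the higher side, and 5 of 9 had an unadjusted p under 0.05, as did 5407 of the 12342 genes. Phf10 (-0.51, adjusted p = 0.0594) and Smarcc2 (-0.58, adjusted p = 0.0908) fell short of the adjusted threshold. Dpf3, whose difference changed with stage, had a mean of 1.09 (SE 0.515, adjusted p = 0.165). Stages are not replicates of a condition, so a difference that changes with stage counts as error in this fit, and Smarca4 was not in it. Without the block, 0 of the 9 passed, with 3 at an unadjusted p under 0.05. Of all 12342 genes, 5.53% then passed on the lower side and 3.46% on the higher, and 3567 had an unadjusted p under 0.05. Without P2, 3 were lower and Dpf3 passed on the higher side (adjusted p = 0.0168), where 2293 of all genes were lower and 1020 higher. Without P5, 0 passed in limma, with 3 at an unadjusted p under 0.05. In that fit only 88 of all genes were lower and 171 higher, and 3270 had an unadjusted p under 0.05. Without P8, Smarcc1 and Dpf1 passed on the lower side, where 1838 of all genes were lower and 820 higher.

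**Figure D3:**
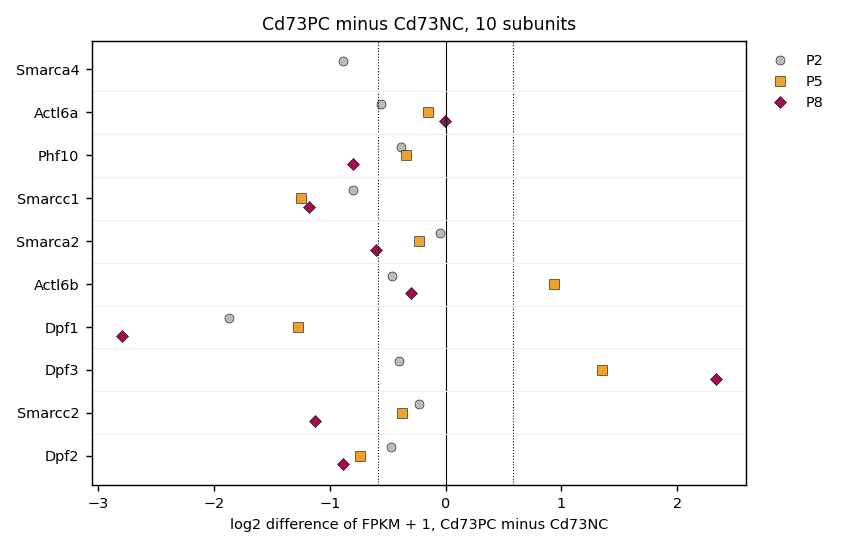
Log2 difference of FPKM + 1, Cd73PC minus Cd73NC (x axis), of the 10 subunits (y axis) at P2 (grey circles), P5 (orange squares), and P8 (purple diamonds). Dotted lines mark 1.5-fold, and Smarca4 has a value at P2 alone. Dpf3 lies at 2.33 and Dpf1 at -2.80 at P8.

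Over time within a fraction, the medians of the 2 types had opposite signs from P2 to P8, but not from P2 to P5 in Cd73NC. The comparisons share libraries with those above. In Cd73PC from P2 to P8, 2 of 10 subunits were past 1.5-fold higher at P8 (background 10.4%), the neuron-type Dpf3 (4.85-fold) and Actl6b (1.52-fold). Another 3 were lower (background 25.0%), the progenitor-type Smarcc1 (2.14-fold), Phf10 (1.86-fold), and Actl6a (1.58-fold). The median difference was 0.36 for the neuron-type subunits, -0.78 for the progenitor-type, and -0.20 for all genes tested. Exceptions were Smarca4, progenitor-type, with a log2 difference of 0.50, and Dpf1, neuron-type, with -0.31. Centred on the median of all genes, Smarca4 passed the threshold on the higher side (0.70) and Actl6a did not on the lower (-0.46). The share of higher genes among all past the threshold was 29.4% as deposited, 48.3% centred, and 40.5% with each library scaled to the same upper quartile. With P5 in place of P8, 1 of 9 subunits was past the threshold on the higher side (background 5.38%), Dpf3 (2.42-fold), and 2 were on the lower (background 14.6%), the progenitor-type Phf10 (1.58-fold) and the neuron-type Dpf1 (1.61-fold). Smarcc1 (1.48-fold) and Actl6a (1.33-fold) then fell short of it on the lower side, and Actl6b (1.33-fold) on the higher. Centred on the median of all genes, Dpf3 alone was past the threshold at P5. Markers of several cell types differed as well from P2 to P8: all 10 markers of dividing cells and 7 of 8 progenitor markers were lower, while 7 of 9 rod markers, 5 of 5 bipolar markers (summed FPKM from 9.1 to 92.4), and 3 of 4 microglia markers (25.5 to 70.6) were higher. Their part in these differences was not tested.

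In Cd73NC from P2 to P8, 3 of 9 subunits were past the threshold and higher at P8 (background 20.0%), Smarcc2 (2.37-fold), Smarca2 (1.75-fold), and Dpf1 (1.53-fold), all neuron-type. Another 2 were lower (background 24.0%), Actl6a (2.33-fold) and Smarcc1 (1.64-fold), both progenitor-type. The median was 0.62 for the neuron-type subunits, -0.71 for the progenitor-type, and -0.08 for all genes. Dpf3 was the neuron-type exception, with -0.46. The calls on the higher side rest on the P8 library. With P5 in place of P8, 0 subunits were past the threshold on the higher side (background 12.8%) and 4 were on the lower (background 15.9%), the progenitor-type Actl6a (1.77-fold) and Phf10 (1.63-fold) and the neuron-type Dpf1 (2.43-fold) and Actl6b (1.99-fold). The medians at P5 were then -0.70 for the progenitor-type and -0.47 for the neuron-type subunits. All 5 bipolar markers were past the threshold and higher in P8 than in P2 Cd73NC, as were all 9 rod markers and all 4 microglia markers (summed FPKM from 4.3 to 90.5), and all 10 markers of dividing cells were lower. Of 8 neuron markers, 3 were higher and 4 lower, with a median of -0.89, unlike the neuron-type subunits. Their part in the levels of Smarcc2, Smarca2, Dpf1, and the other subunits was not tested.

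Before birth, 0 of 9 subunits were past the threshold in either direction between E15 and E18, against a background of 7.27% higher and 3.05% lower, and the log2 differences ran from -0.47 (Dpf1) to 0.14 (Actl6a). From E18 whole retina to P2 Cd73NC, 1 of 10 was lower (Actl6b, 1.55-fold; background 12.0%) and 0 were higher (background 5.38%). From E18 whole retina to P2 Cd73PC, 5 of 10 were lower (background 28.7%), namely Dpf1 (4.83-fold), Smarca4 (2.32-fold), Actl6b (2.14-fold), Smarcc2 (1.65-fold), and Smarcc1 (1.63-fold), and 0 were higher (background 14.6%). Of these 5, 3 were neuron-type. Centred on the median of all genes, which was -0.14, 3 of them were past the threshold, and the share of higher genes among all past it moved from 33.7% to 44.9%. From E18 to P2 Cd73PC, 6 of 8 neuron markers were lower and 2 higher, and to P2 Cd73NC 6 were lower and 0 higher. Whole retina and a sorted fraction also differ in dissociation and sorting, which cannot be told apart from the cells compared.

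Other subunits of BAF and its relatives were taken as a list of 21 genes, all in the files. In Cd73PC against Cd73NC, 3 were past the threshold and higher at each of P2, P5, and P8, which is 14.3% of the list, against 13.9%, 11.6%, and 12.4% of all genes. Lower were 6 (28.6%), 8 (38.1%), and 11 (52.4%), against 24.2%, 26.3%, and 29.8%. Both shares at P2 were thus near the background. The 3 higher were, at each stage, Brd7, a bromodomain subunit of the PBAF complex, Smarcd2 (BAF60b), and BC032203. BC032203 was taken as Gltscr1l, a subunit of the noncanonical BAF complex, because it lies between Rpl7l1 and Tbcc as that gene does in RefSeq. In mm9, A330017A19Rik also lies there, between BC032203 and Tbcc, so the position alone does not settle which gene it is. Brd7 had 40.3, 33.8, and 29.3 FPKM in P2, P5, and P8 Cd73NC and 66.0, 60.6, and 53.6 in Cd73PC, so that each Cd73PC level was above each Cd73NC level. Smarcd2 had 7.88, 8.31, and 9.22 FPKM in Cd73NC and 15.2, 16.0, and 15.5 in Cd73PC, and BC032203 had 5.33, 7.95, and 10.3 in Cd73NC and 11.2, 12.7, and 17.1 in Cd73PC. Lower at all 3 stages were Brd9, the bromodomain subunit of noncanonical BAF, Smarcd1 (BAF60a), Smarcd3 (BAF60c), Ss18, and Bcl11a, a zinc finger subunit of lymphoid and neural cells. These calls depend in part on the scale. With the differences centred on the median of all genes, 5 were higher at P2 and 4 at P5 and P8, Bcl7b joining at each stage and Arid2 at P2, and 2, 5, and 9 were lower. Of all genes, 2192 of 12347 were then higher at P2, 2040 of 12347 at P5, and 2193 of 12348 at P8. Lower were 2391, 2488, and 2823. On the lower side, Brd9, Smarcd1, Ss18, and Bcl11b at P2, Smarce1, Ss18, and Bcl11b at P5, and Ss18 and Bcl7c at P8 then fell short of the threshold. Smarce1 (BAF57) was lower at P5 and P8, by 1.68-fold and 2.07-fold, and Bcl7c (1.61-fold), Actb (1.87-fold), and Gltscr1 (1.77-fold) at P8 alone. Over the 3 stages in the limma fit with stage as a block, 4 of 20 were higher (Brd7, Smarcd2, Bcl7b, and BC032203) and 7 lower (Brd9, Smarcd1, Smarcd3, Smarce1, Ss18, Bcl7a, and Bcl11a) at an adjusted p under 0.05. Without P5, 0 passed, with 10 at an unadjusted p under 0.05, and without the block 2 were higher and 3 lower. Bcl11b was past the threshold and lower at P2 and P5 but was at 1.03 FPKM or less in the 6 sorted libraries.

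Several of these belong to small families whose members differed in direction. Smarcd2 made up between 9.7% and 11.1% of the summed FPKM of the 3 BAF60 genes in whole retina and Cd73NC, and 28.9%, 31.9%, and 34.9% in P2, P5, and P8 Cd73PC. Smarcd3 made up 24.7% in E15 and 20.7% in E18, between 7.9% and 13.5% in Cd73NC, and 6.5%, 5.1%, and 3.5% in Cd73PC. Its FPKM was 23.6 in E15 and 1.54 in P8 Cd73PC, the lowest. Brd7 made up 82.3%, 86.5%, and 85.8% of Brd7 and Brd9 together in the Cd73PC libraries and between 58.6% and 66.7% in the 5 others. In the BCL7 family, Bcl7a was 2.55-fold and 2.51-fold lower in Cd73PC at P5 and P8, while Bcl7b was 1.47-fold, 1.37-fold, and 1.33-fold higher at P2, P5, and P8, which is not past the threshold. Bcl7b made up 51.1% of the family sum in P8 Cd73PC and 26.8% in P8 Cd73NC. Ss18 and Ss18l1 (CREST), which replaces Ss18 in neurons, were both lower in Cd73PC at P8, by 1.72-fold and 1.97-fold, and Ss18l1 made up 28.3% of their sum there against 32.3% in Cd73NC. The core subunit Smarcb1 was within 1.34-fold at the 3 stages, and Arid1a, Arid1b, Arid2, and Pbrm1 were not past the threshold at any, with Arid1a just short of it at P5 (log2 difference -0.58).

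**Figure D4:**
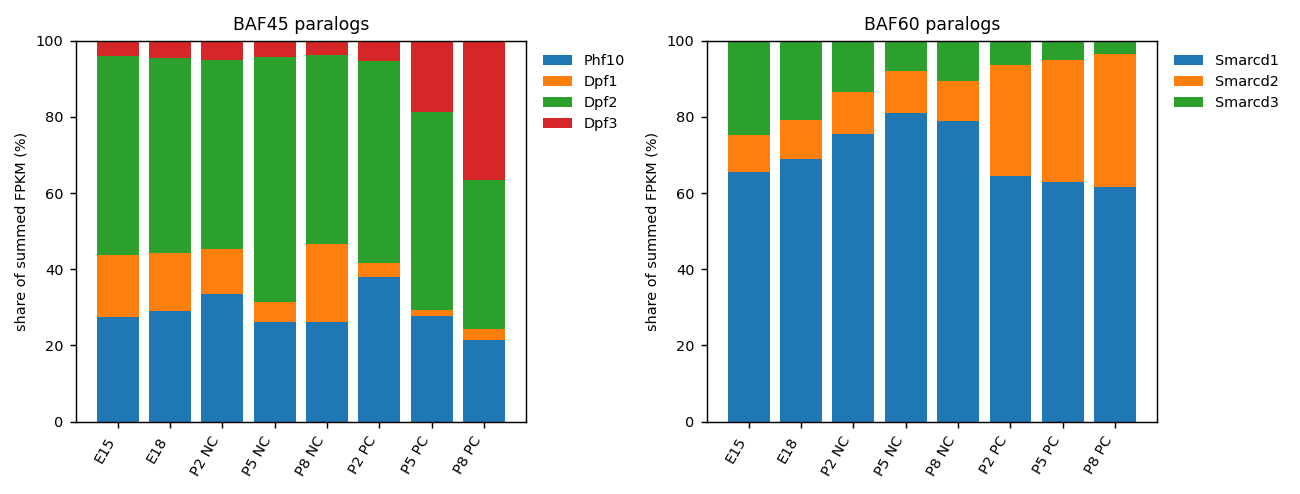
Share of the summed FPKM (y axis, %) of each BAF45 gene (left) and each BAF60 gene (right) in the 8 libraries (x axis). The Dpf3 share reaches 36.5% and the Smarcd2 share 34.9% in P8 Cd73PC.

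**Figure D5:**
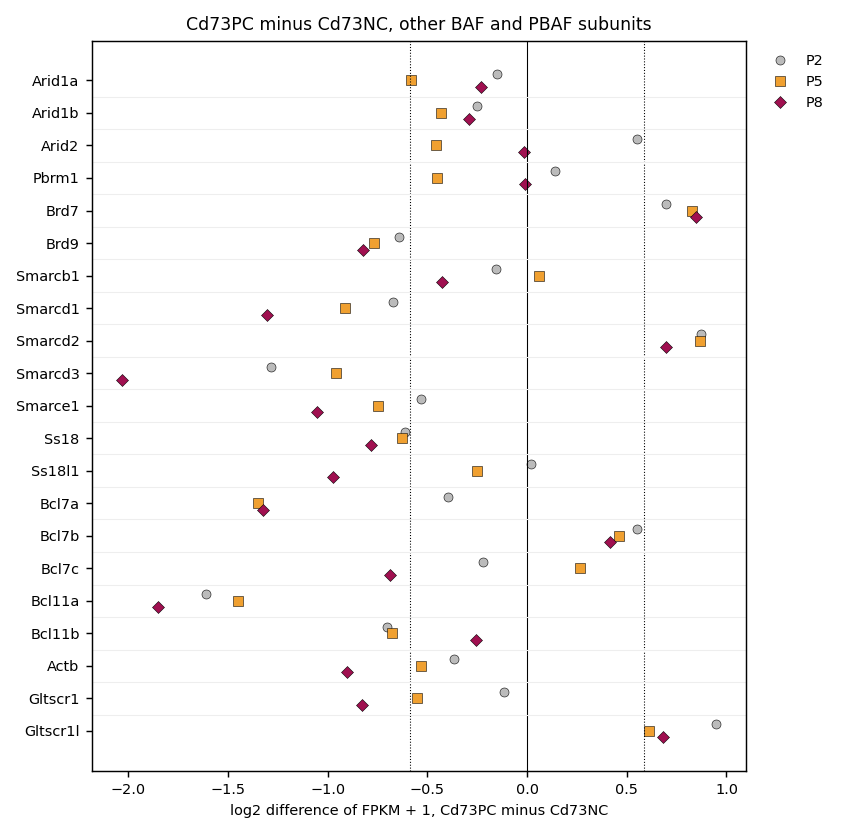
Log2 difference of FPKM + 1, Cd73PC minus Cd73NC (x axis), of the 21 other subunits (y axis) at P2, P5, and P8, with dotted lines at 1.5-fold. Gltscr1l is the name taken here for the gene listed as BC032203. Brd7, Smarcd2, and Gltscr1l lie beyond the right dotted line at each stage.

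Of 5 genes linked to the exchange, 1 was past the threshold and higher in Cd73PC at each stage. This is 20.0% of the list against 13.9%, 11.6%, and 12.4% of all genes, and nothing is read from a count of 1. It was A930011O12Rik (Rncr3), the transcript from which a miR-124 is cut, with 4.04, 8.82, and 11.2 FPKM in P2, P5, and P8 Cd73NC and 16.2, 38.6, and 46.4 in Cd73PC, differences of 3.41-fold, 4.03-fold, and 3.87-fold. It had 14.3 FPKM in E15 and 27.7 in E18, so that P2 Cd73NC was the lowest of the 8 libraries. C130071C03Rik, the host of a miR-9, was lower in Cd73PC at each stage, at 0.31 to 0.53 FPKM against 0.98 to 2.73 in Cd73NC. These levels are low, with bounds of 0.087 to 0.52 in P5 Cd73PC. Centred on the median of all genes, C130071C03Rik was not past the threshold at P8. Rest, the repressor of neuronal genes outside neurons, was lower at each stage as well, by 2.1-fold, 2.57-fold, and 3.86-fold, with 5.35, 3.71, and 6.48 FPKM in Cd73NC and 2.03, 0.83, and 0.94 in Cd73PC. Of its CoREST partners, Rcor2 was lower at P5 (2.35-fold) and P8 (5.48-fold), and Rcor1 was not past the threshold at any stage. The genes lower in Cd73PC were 40%, 60%, and 60% of the list at P2, P5, and P8, against 24.2%, 26.3%, and 29.8% of all genes. Actl6a, whose 3′ UTR holds the match printed above, differed between the fractions by 1.47-fold at P2 and 1.11-fold at P5, and had 33.4 FPKM in both at P8. In the limma fit with stage as a block, Rncr3 passed on the higher side (1.91, SE 0.134, adjusted p = 0.00328) and Rest (-1.46, adjusted p = 0.0111) and C130071C03Rik (-1.07, adjusted p = 0.0272) on the lower. These are 20.0% and 40.0% of the list, against 9.17% and 20.2% of all genes. Without the block, Rest alone passed (adjusted p = 0.0364), where 5.53% of all genes were lower. Without P5, Rncr3 alone passed, where 171 of 12342 genes were higher. Mature microRNAs were not analysed here.

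The genes whose profile was most like that of a member were found among the 12358 genes with a mean of at least 1 FPKM, by the root mean square difference (RMS) of log2(FPKM + 1) over the 8 libraries after each gene was centred on its mean. Dpf3 was nearest to Slc26a11 (0.21), 1700003E16Rik (0.22), and Heatr5a (0.23), against an own spread of 0.76. Slc26a11 had 3.45 and 8.01 FPKM in P5 and P8 Cd73PC and between 1.29 and 2.40 elsewhere. Dpf1 was nearest to Sybu (0.19), Ctnna2 (0.20), and Tmem132e (0.23), against an own spread of 1.28. Sybu, at 17.9 FPKM in E15 and 16.5 in P8 Cd73NC, was at 2.26 or less in Cd73PC. Smarcc1 was nearest to Crat (0.09), Coro1c (0.10), and Gm5803 (0.12), Smarcc2 to Prr3 (0.11), Ppp6r2 (0.11), and Kdm4b (0.12), and Smarca2 to Gabarapl1 (0.11), Ppp1r9a (0.11), and Lmbr1 (0.11). Actl6a was nearest to Tfam (0.08), Mrps9 (0.08), and Ubr7 (0.09), and Actl6b to Gm5151, Klhl23, and Zgpat (0.26 to 0.27), the least close. Phf10 was nearest to Snrnp70 (0.07), 0610010F05Rik (0.09), and Ankrd10 (0.10), and Dpf2 to Gm13498 (0.05), Ptgfrn (0.10), and Ankrd13a (0.11). Smarca4 was left out for its failed estimates. With a pseudocount of 0.1, 7 of these 27 genes were no longer among the 3 nearest, namely Gabarapl1, Ubr7, Gm5151, Tmem132e, 1700003E16Rik, Ptgfrn, and Crat.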

How the data were processed

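Per the labels and the study's methods, total RNA of 8 retina samples was made into poly(A) libraries without strand information and sequenced as single reads of 36 bases, and the authors aligned them to mm9 with TopHat2 2.0.8b and deposited Cufflinks 2.1.1 FPKM values with confidence bounds for 23021 rows per library. Rows marked as failed (4 to 10 per library) were taken as missing, 797 rows of small RNAs were left out, and rows of 234 repeated symbols were summed, leaving 21827 genes. The 12358 genes with a mean of at least 1 FPKM over the 8 libraries, all 10 subunits among them, formed the background, less those missing in a comparison. With 1 library per condition, differences of log2(FPKM + 1) were called past 1.5-fold, with no test and no p-value for a single stage. Per the study's methods, both fractions of a stage came from the same retinas, and the deviations of the 2 fractions from their means correlated across genes at 0.675 (P2), 0.437 (P5), and 0.696 (P8), which stage alone can give. So a limma fit with stage as a replicate block, chosen after seeing the data, compared the fractions over the stages (2 residual degrees of freedom, moderated with a trend, Benjamini-Hochberg adjustment). Depth relative to E18 was read from the steps of FPKM values under 0.3, and no interval or detection limit could be computed from it. The named genes are all members, other subunits past the threshold, and the 3 nearest profiles per member. One marker gene is not reported here. The members and lists were chosen with earlier results of these data known. Positions in the tables count from 0, and 1 was added to the start. Transcripts, words of 36 bases, and 3′ UTRs came from the GENCODE annotation and genome of NCBIM37, the same build, and promoters and the microRNA from RefSeq. Analyses used Python 3.11.15, numpy 2.4.6, pandas 2.3.3, matplotlib 3.10.9, R 4.3.3, and limma 3.58.1, tested on simulated data.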

Additional observations from a re-analysis of the deposited data

Results flagged for a closer look

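In 6 comparisons of 3 subunits, the difference had opposite signs in 2 settings, with at least 1 of the pair past 1.5-fold. There was 1 library per condition, so the change of sign was not tested. For Actl6b, the values of Cd73PC minus Cd73NC on the log2 scale were -0.464 (P2), 0.938 (P5), and -0.295 (P8), a step of 1.40 from P2 to P5 and of -1.23 from P5 to P8. The Cd73NC level at P5, 6.72 FPKM, was the lowest of the 8 libraries. For Dpf3, they were -0.401 (P2), 1.35 (P5), and 2.33 (P8), steps of 1.75 and 2.74 from P2. From P2 to P8, Dpf3 differed by 2.28 in Cd73PC and by -0.459 in Cd73NC, which is -2.74 between the fractions, and Dpf1 by -0.312 in Cd73PC and by 0.617 in Cd73NC, which is 0.929 between them.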

How the results depend on the processing

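The fit over the stages, paired by a replicate block of stage, gave 3 subunits lower and 0 higher in Cd73PC. Without the block 0 were lower, and with each stage left out in turn 0 to 3 were lower and 0 to 1 higher. Of all genes, 20.2% were lower with the block and 5.53% without it. With P5 left out, only 88 of 12342 genes were lower and 171 higher. For single stages, each group has 1 library, so none could be left out. Of 684 log2 differences of single subunits computed under the alternatives, 680 moved by less than 1.5-fold and none reversed a call. The 4 others were Dpf1 in the fractions with a smaller or no pseudocount (-1.94 and -2.07 at P5, -3.42 and -3.51 at P8). Much of this agreement was fixed in advance. The 2-fold threshold, no low-value filter, a demand for bounds apart, and failed estimates set to 0 leave any difference with a value unchanged. Centring shifted all genes of a comparison alike, by less than 1.5-fold. With failed estimates set to 0, Smarca4 counted as 1 higher from E15 to E18 and made 2 subunits higher at P8. At a 2-fold threshold, subunits lower in Cd73PC were 1 at P2 and 3 at P8, and 1 was higher at P5. From E18, 3 were lower in P2 Cd73PC, against 0 in P2 Cd73NC. From P2 to P8, 1 was higher and 1 lower in each fraction. All genes past 2-fold were 19.9%, 19.5%, and 25.1% in the fractions at P2, P5, and P8, 3.46% from E15 to E18, 23.2% and 5.46% from E18 to P2 Cd73PC and Cd73NC, and 15.8% and 23.7% from P2 to P8 in Cd73PC and Cd73NC. With no filter on low values, the shares past 1.5-fold were, in the same order, 23.0%, 22.6%, 26.1%, 6.70%, 27.1%, 11.4%, 21.1%, and 27.8%. Centred on the median, 3 subunits were lower from E18 to P2 Cd73PC, and after quantile normalization 2 were lower from E18 to P2 Cd73NC. The log2 ratio of Dpf1 over Phf10 was -3.82 in P5 and -2.9 in P8 Cd73PC with a pseudocount of 0.1, and -3.98 and -2.99 with none. Quantile normalization moved the share of higher genes among those past the threshold by more than 10 percentage points in 6 comparisons, for example from 70.5% to 56.7% between E15 and E18. Chosen after seeing the data, leaving out Dpf2 and Dpf3, whose words repeat, left 1 subunit higher at P5, 0 at P8, and 1 from P2 to P8 in Cd73PC. Likewise added, P5 in place of P8 gave 1 higher in Cd73PC, and 0 higher and 4 lower in Cd73NC, with genes of both types among the lower. The cause of these shifts was not tested. Failed estimates of Smarca4 and the unknown depth limit what the levels can show.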
